A study of Mus musculus with 20 samples.

Results

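Cpz, which encodes carboxypeptidase Z, was described together with 6 relatives of the same metallocarboxypeptidase branch, Cpd, Cpm, Cpn1, Cpxm1, Cpxm2 and Aebp1. These 7 genes were taken by symbol from a deposited table of 51810 genes, and all 7 passed the filter on low counts that left 28932 genes for testing. Cpz was selected on its level in cHyper mTEClo, which was high while WT mTEClo had almost no fragments, so every comparison of Cpz that includes mTEClo is a description and carries no test. The others were chosen by their kinship to it. RNA was measured in sorted medullary thymic epithelial cells (mTEC) from mice of 4 to 5 weeks, with 3 libraries in each of 4 groups. The groups were mTEChi of the genotype labelled Trp53-cHyper, mTEChi of Trp53-WT, mTEClo of Trp53-cHyper and mTEClo of Trp53-WT, called cHyper and WT here. What cHyper stands for, the promoter or Cre that may act in it, the strain and the sorting gates are not given in the labels. All groups came from EpCAM-enriched thymic stroma, with 75000 sorted mTEC per sample. The labels do not say whether a replicate is an animal of its own, so the spread behind each p-value is that between libraries and may be technical.

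Metallocarboxypeptidases use a zinc ion to remove amino acids from the carboxyl end of a peptide or protein, and those of the N and E branch prefer arginine and lysine. Cpz encodes a secreted, matrix-bound enzyme that carries a cysteine-rich domain of the kind by which frizzled receptors bind Wnt proteins. Cpd encodes a membrane enzyme of the trans-Golgi network that trims proteins after furin-type convertases have cut them. Cpm encodes a lipid-anchored enzyme of the cell surface, and Cpn1 the catalytic subunit of carboxypeptidase N, a plasma enzyme made in the liver. Both trim kinins and the complement anaphylatoxins. Cpxm1, Cpxm2 and Aebp1 encode secreted proteins with a discoidin domain that lack residues needed for catalysis, and the Aebp1 product binds collagen in the matrix of connective tissue. mTEC display tissue-restricted antigens to developing T cells, and mTEChi are the more mature cells, in which the autoimmune regulator Aire is active.

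The stretch of DNA just before the Cpz gene is shown because Cpz is the member on which the genotypes differed most and the genotype label refers to p53. Cpz lies on the minus strand of chromosome 5 (35502218 to 35525698, ENSMUSG00000036596), in the coordinates of the deposited table on mm10. The sequence runs 5′ to 3′ on the minus strand over chr5:35525699-35525876 and is credited to RefSeq promoters on GRCm38.p6. Capitals mark a match to the decamer consensus of a p53 half-site, not of a full site, at 35525777 to 35525786. It is 160 bases before the RefSeq start of Cpz.
Cpz promoter: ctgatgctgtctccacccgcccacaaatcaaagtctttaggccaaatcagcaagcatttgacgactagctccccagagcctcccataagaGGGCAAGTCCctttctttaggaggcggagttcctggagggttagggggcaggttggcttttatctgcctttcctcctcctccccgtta
All 7 genes had a RefSeq promoter window of 300 bases, from 250 bases before the start to 50 after it. Searched on both strands, the decamer consensus had 1 match in the Cpz window and none in the other 6, and 8.36% of 32851 promoter windows held at least 1 match. A match is a run of letters and is not shown to be a binding site. The Cpz window also held 1 GGGCGG and neither TATAAA nor CCAAT, letters found in 35.7%, 13.6% and 37.4% of all windows in that order. Its GC content was 60.3%, near that of Cpd at 59.7%, and the other 5 windows ran from 48% in Cpn1 to 73.7% in Cpm.

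Depth was 42.08 to 47.93 M fragments in the libraries numbered 1 and 2, and 22.02 to 25.31 M in those numbered 3, for which the labels also give another run scheme. Levels are CPM, fragment counts scaled to library depth with TMM factors, unless said otherwise. Trp53 had 134 ± 4.65 CPM in cHyper mTEChi and 101 ± 4.6 CPM in WT mTEChi, a log2 fold change of 0.41 (edgeR adjusted p = 0.020). That call ended when any of 4 libraries was left out, cHyper mTEChi replicate 1 or 3 or WT mTEChi replicate 1 or 2 (adjusted p 0.0895 to 0.110), and in replicates 1 and 2 only (0.0546). In mTEClo, Trp53 had 166 ± 11.6 CPM in cHyper and 137 ± 0.959 CPM in WT (SD, n = 3 each), with an edgeR adjusted p of 0.0553 (0.0275 with the replicate block, 0.00972 in DESeq2 and 0.0475 in limma-voom). None of 9 mTEC markers was at 0 in any library. The summed level of 9 myeloid markers was 507 to 694 CPM in mTEChi and 29.9 to 48.5 CPM in mTEClo. The summed level of 10 mesenchymal markers was 276 to 345 CPM in mTEChi and 1311 to 2216 CPM in mTEClo. None of either list was at 0 in all libraries of a group. Col6a1 and Col6a2 made up most of the mesenchymal sum in mTEClo, while Col1a1, Col1a2 and Pdgfrb were higher in mTEChi.

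Cpz transcripts were abundant in cHyper mTEClo and nearly undetected in WT mTEClo. Cpz had 40.4, 42.9 and 42.4 CPM in the cHyper mTEClo libraries, against 0, 0.0694 and 0.0469 CPM in the WT mTEClo libraries. These levels rest on 1766, 1866 and 1042 fragments in cHyper mTEClo and on 0, 3 and 1 fragments in WT mTEClo. The groups did not overlap, as was true of 25.2% of all genes. The ratio of the pooled fragments per library depth was 1117-fold, with a 95% interval of 436 to 4100 that covers counting error only. Cpz was chosen for this contrast, so neither the separation nor the interval is support for it. The fitted log2 fold change was 10.0; leaving out replicate 1 of WT mTEClo gave 9.33 and leaving out its replicate 2 gave 11.1, so its size is set by a handful of WT fragments. In bulk samples, a change in the number of cells that express a gene and a change in RNA per cell cannot be told apart.

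Cpz was also higher in cHyper among mTEChi, whose levels the rule that chose it does not name. Earlier results of these data were known at that choice, so the test is not independent support. The main fit also takes its spread from all 12 libraries, and on the mTEChi groups alone the edgeR adjusted p was 3.86e-05. Cpz had 19.6, 20.0 and 23.4 CPM in the cHyper mTEChi libraries, against 6.47, 6.84 and 6.75 CPM in the WT mTEChi libraries. Every cHyper mTEChi library lay above every WT mTEChi library, and 25.7% of all genes did not overlap between these groups. The rise was 3.13-fold (log2 1.65, SE 0.149, 95% interval 1.33 to 1.97, edgeR adjusted p = 4.59e-05). The call held in each of the 20 alternative settings, with log2 fold changes of 1.56 to 1.68. Split by run scheme, the log2 ratio of mean CPM was 1.56 in replicates 1 and 2 and 1.78 in replicate 3.

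Between the cell types, Cpz ran in opposite directions in the genotypes. In WT it was higher in mTEChi, at 6.69 ± 0.191 CPM, than in mTEClo, at 0.0388 ± 0.0354 CPM (SD, n = 3 each), a log2 difference of 7.36 that is given without a test, since the low WT mTEClo level had a part in choosing the gene. The ratio of pooled fragments, 808 in WT mTEChi and 4 in WT mTEClo, was 178-fold with a counting interval of 69.4 to 656. That interval does not allow for the choice of the gene. Leaving out replicate 1 of WT mTEClo gave a log2 fold change of 6.68, and leaving out its replicate 2 gave 8.41. In cHyper it was lower in mTEChi, at 21.0 ± 2.11 CPM, than in mTEClo, at 41.9 ± 1.36 CPM, a log2 difference of -1.0 that is also given without a test. From highest to lowest, the order of the groups was cHyper mTEClo, cHyper mTEChi, WT mTEChi and WT mTEClo, and no neighbours in that order overlapped. Between the same neighbouring groups, in that order, 68.7%, 25.7% and 73.3% of all genes did not overlap. The genotype and cell type comparisons share groups, so these directions are not independent of each other.

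**Figure D1:**
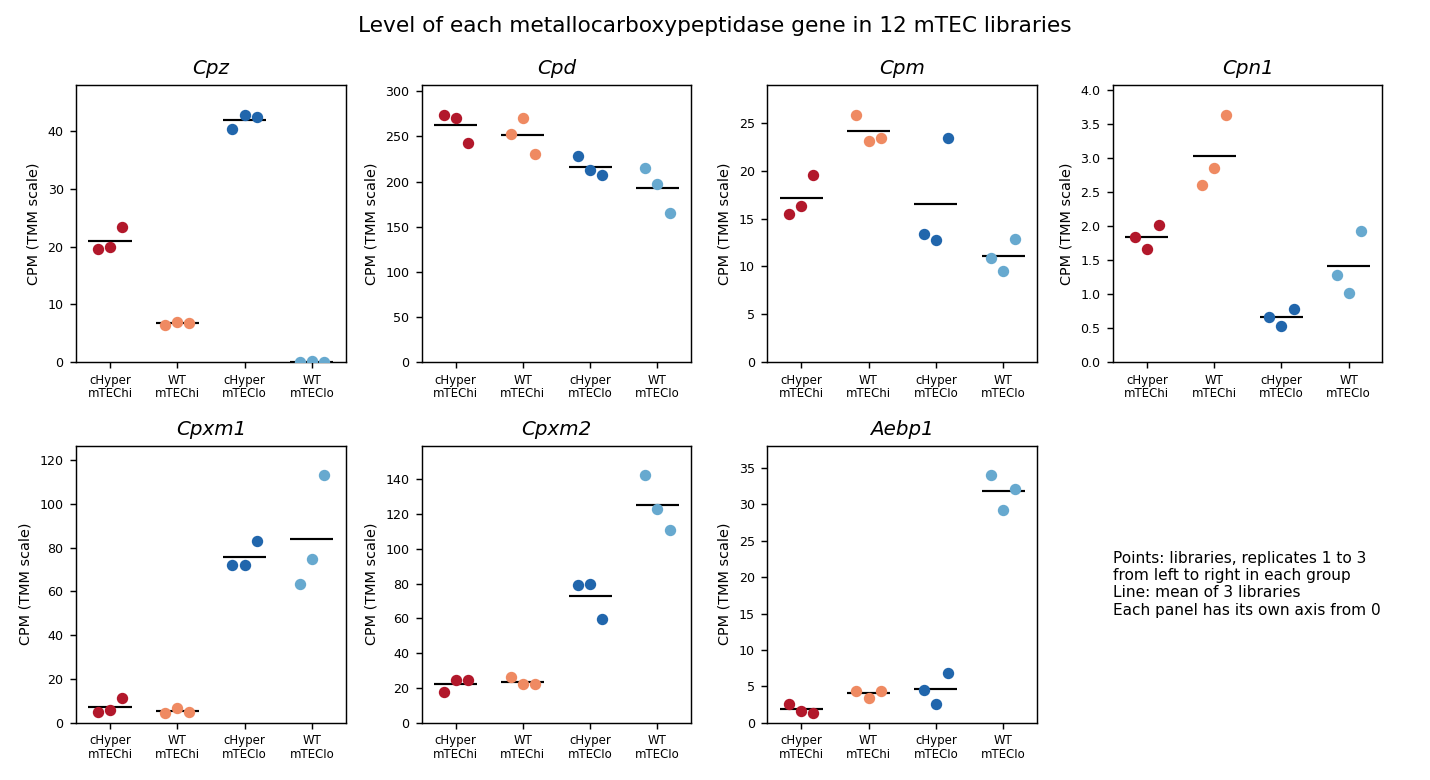
Level of each of the 7 genes (CPM, TMM scale, linear axis from 0 in each panel) in the 12 libraries, with cHyper mTEChi, WT mTEChi, cHyper mTEClo and WT mTEClo from left to right. Points are libraries and lines are means of 3. Cpz is near 42 CPM in cHyper mTEClo and at most 0.0694 CPM in WT mTEClo, while Aebp1 is at most 6.84 CPM in cHyper mTEClo and at least 29.3 CPM in WT mTEClo.

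Among the other 6 genes in mTEClo, Aebp1, Cpxm2 and Cpn1 fell in cHyper, none rose, and 3 did not pass the test. Over all genes tested, 9.16% were called in this comparison, 4.53% higher and 4.64% lower, and 25.2% of genes did not overlap between the groups. The median log2 fold change of all genes was 0.0015, and scaling changed it little.

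Aebp1 (chromosome 11, 5861947 to 5872088, plus strand), which encodes the collagen-binding ACLP protein, moved most after Cpz. It had 4.48, 2.53 and 6.84 CPM in cHyper mTEClo, against 34.0, 29.3 and 32.2 CPM in WT mTEClo. The cHyper libraries differed among themselves by more than the WT libraries did, yet all 3 lay far below WT. The fall was 7.01-fold (log2 -2.81, SE 0.291, edgeR adjusted p = 2.37e-05), and the log2 ratio of mean CPM was -3.14 in replicates 1 and 2 and -2.22 in replicate 3.

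Cpxm2 (chromosome 7, 132032687 to 132154739, minus strand) encodes another discoidin-domain relative. Its levels were 79.2, 80.0 and 59.9 CPM in cHyper mTEClo, against 142, 123 and 111 CPM in WT mTEClo. The groups did not overlap, with a 1.72-fold fall (log2 -0.78, SE 0.151, edgeR adjusted p = 0.00437). Exons of Cpxm2 overlap those of the antisense gene Gm15677, which had 2272 fragments over all libraries against 27458 of Cpxm2. The strand setting of the counting is not stated, so reads of the pair cannot be told apart with certainty.

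Cpn1 (chromosome 19, 43956307 to 43986556, minus strand) was the lowest-counted member after Cpz in WT mTEClo. It had 0.663, 0.529 and 0.774 CPM in cHyper mTEClo, against 1.28, 1.02 and 1.92 CPM in WT mTEClo, from 71 fragments in cHyper and 139 in WT. The fall of 2.12-fold (log2 -1.08, SE 0.294, edgeR adjusted p = 0.0319) lost its call in 7 of 20 alternatives. These were limma-voom (adjusted p = 0.0735), the fit on the compared groups alone (0.0990), replicates 1 and 2 only (0.0964) and leaving out cHyper mTEClo replicate 1 or 2 or WT mTEClo replicate 1 or 3 (0.0582 to 0.126).

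Cpm, Cpd and Cpxm1 did not pass the test in mTEClo. Cpm (chromosome 10, 117629500 to 117687352, plus strand) had 13.4, 12.8 and 23.5 CPM in cHyper mTEClo, against 10.9, 9.51 and 12.8 CPM in WT mTEClo. Replicate 3 of cHyper stood above the rest, and the edgeR adjusted p was 0.0944 for a log2 fold change of 0.58. With the replicate number as a block it was 0.0364, and without the filter on low counts 0.0426. Cpd (chromosome 11, 76778424 to 76847018, minus strand) averaged 216 ± 10.8 CPM in cHyper mTEClo and 193 ± 25.7 CPM in WT mTEClo, with a log2 fold change of 0.16 and a 95% interval of -0.069 to 0.40. Cpxm1 (chromosome 2, 130390775 to 130397574, minus strand) averaged 75.7 ± 6.35 CPM in cHyper mTEClo and 83.8 ± 26.0 CPM in WT mTEClo (SD, n = 3 each). Its log2 fold change was -0.15, with a 95% interval of -0.69 to 0.40.

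Markers of mesenchymal cells were read beside these matrix genes. The summed level of the 10 markers was 1311 to 1980 CPM in cHyper mTEClo and 1954 to 2216 CPM in WT mTEClo, so the ranges overlapped slightly. Within that list Col3a1, a fibrillar collagen, and Dpt, dermatopontin, rose in cHyper mTEClo (log2 1.51 and 2.55, edgeR adjusted p = 7.0e-04 and 7.7e-04). Pdgfra, a receptor of fibroblasts, fell (log2 -1.61, edgeR adjusted p = 0.0023), and the other 7 did not pass the test, beside 9.16% of all genes called. The part of these cells in the change of Aebp1 or Cpxm2 was not tested.

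In mTEChi, Cpz was the only member called between the genotypes in the edgeR fit, 1 of 7, where 1.98% of all tested genes were called, 1.56% higher and 0.418% lower. That share is 572 genes, and with the replicate block 1251 were called. The call count was 2 or 3 of 7 in some alternatives, with Aebp1, or Aebp1 and Cpm, added. Aebp1 had 2.57, 1.59 and 1.36 CPM in cHyper mTEChi, against 4.37, 3.36 and 4.40 CPM in WT mTEChi. Its libraries did not overlap between the genotypes, as was true of 25.7% of genes, and its log2 fold change of -1.10 had an edgeR adjusted p of 0.0853. That p was 0.0335 with the replicate block, 0.00635 in DESeq2, 0.00690 without the filter, 0.0290 with the compared groups alone, and 0.0284 or 0.0326 without cHyper mTEClo replicate 2 or 3.

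Cpm had 15.4, 16.3 and 19.6 CPM in cHyper mTEChi, against 25.9, 23.1 and 23.5 CPM in WT mTEChi. These groups did not overlap either, and the log2 fold change was -0.50 (edgeR adjusted p = 0.251, or 0.0439 with the compared groups alone). Cpn1 had 1.84, 1.66 and 2.02 CPM in cHyper mTEChi, against 2.61, 2.86 and 3.64 CPM in WT mTEChi, with a log2 fold change of -0.72 (adjusted p = 0.202). The others overlapped between the genotypes, with 95% intervals of the log2 fold change of -0.17 to 0.30 for Cpd, -0.22 to 0.99 for Cpxm1 and -0.41 to 0.25 for Cpxm2. In Cpxm1, cHyper mTEChi replicate 3 stood apart at 11.2 CPM, with the other cHyper mTEChi libraries at 4.78 and 5.60 CPM and the WT mTEChi libraries at 4.56 to 6.49 CPM.

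**Figure D2:**
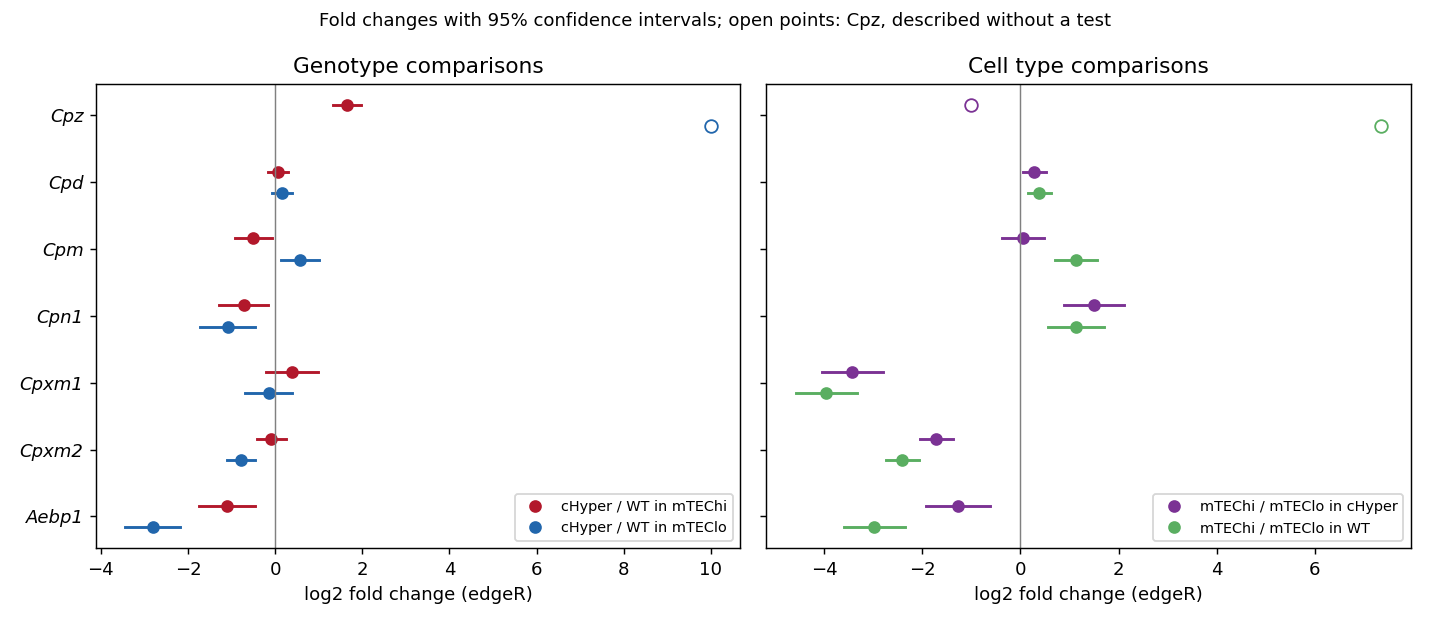
Log2 fold changes of the 7 genes from the edgeR fit, with genotype comparisons (cHyper over WT) at left and cell type comparisons (mTEChi over mTEClo) at right. Bars are 95% intervals before adjustment over genes, and open points are the values of Cpz given without a test. Cpz stands at 1.65 in mTEChi and 10.0 in mTEClo, and Cpxm1, Cpxm2 and Aebp1 lie below 0 in both cell type comparisons.

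Apart from Cpz, the members were compared between the cell types in both genotypes. In WT all 6 were called, 3 higher and 3 lower in mTEChi, where 69.5% of all tested genes were called, 40.2% higher and 29.4% lower. In cHyper, 5 of the 6 were called, 2 higher and 3 lower, where 64.5% of all genes were called, 38.7% higher and 25.8% lower. Groups did not overlap for any of the 6 in WT, nor for 73.3% of all genes; in cHyper, Cpm and Aebp1 overlapped and 68.7% of all genes did not. The 3 called lower in mTEChi were Cpxm1, Cpxm2 and Aebp1, which encode discoidin-domain proteins, in both genotypes. Those called higher were Cpd, Cpm and Cpn1 in WT, and Cpd and Cpn1 in cHyper. The median log2 fold change of all genes was 0.12 in WT and 0.13 in cHyper, and scaling by library totals moved these to 0.34 and 0.30.

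Of the 7 genes, Cpxm1 showed the largest fall between the cell types. It had 4.78, 5.60 and 11.2 CPM in cHyper mTEChi, against 71.9, 72.1 and 83.0 CPM in cHyper mTEClo, a 10.8-fold fall (edgeR adjusted p = 9.55e-08). In WT it averaged 5.36 ± 1.01 CPM in mTEChi and 83.8 ± 26.0 CPM in mTEClo, a 15.6-fold fall (adjusted p = 1.97e-08). Cpxm2 averaged 22.3 ± 4.28 CPM in cHyper mTEChi and 73.0 ± 11.4 CPM in cHyper mTEClo, a 3.28-fold fall, and 23.6 ± 2.18 CPM in WT mTEChi and 125 ± 15.8 CPM in WT mTEClo, a 5.31-fold fall (SD, n = 3 each; adjusted p = 2.29e-07 and 5.59e-09).

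Aebp1 fell 7.89-fold in WT, to 4.04 ± 0.596 CPM in mTEChi, against 31.8 ± 2.38 CPM in mTEClo (edgeR adjusted p = 4.07e-07). In cHyper it averaged 1.84 ± 0.642 CPM in mTEChi and 4.62 ± 2.16 CPM in mTEClo, a 2.42-fold fall (adjusted p = 0.00204) whose libraries overlapped. Its log2 ratio in cHyper was -0.73 in replicates 1 and 2 and -2.25 in replicate 3. Mesenchymal markers summed to 276 to 302 CPM in cHyper mTEChi and 1311 to 1980 CPM in cHyper mTEClo. In WT the sums were 279 to 345 CPM in mTEChi and 1954 to 2216 CPM in mTEClo. Col6a1 and Col6a2 led the mTEClo sums, at 1141 and 816 CPM in WT mTEClo. In mTEChi, edgeR called 4 of the 10 markers lower and 3 higher in WT, and 5 lower and 4 higher in cHyper. Over all genes, 69.5% were called in WT and 64.5% in cHyper. Col1a1 averaged 84.7 CPM in WT mTEChi and 2.47 CPM in WT mTEClo. The part of mesenchymal cells in the falls of Cpxm1, Cpxm2 and Aebp1 was not tested.

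Of the genes higher in mTEChi, Cpn1 rose in both genotypes. It averaged 1.84 ± 0.177 CPM in cHyper mTEChi and 0.655 ± 0.123 CPM in cHyper mTEClo (2.83-fold, edgeR adjusted p = 3.5e-04), and 3.04 ± 0.540 CPM in WT mTEChi and 1.41 ± 0.466 CPM in WT mTEClo (2.20-fold, adjusted p = 0.0015). Cpm rose 2.19-fold in WT, to 24.1 ± 1.50 CPM in mTEChi, against 11.1 ± 1.66 CPM in mTEClo (adjusted p = 1.6e-04). In cHyper, Cpm averaged 17.1 ± 2.19 CPM in mTEChi and 16.6 ± 5.99 CPM in mTEClo (SD, n = 3 each), with a log2 fold change of 0.05 and a 95% interval of -0.38 to 0.48. Macrophages are known in humans to carry carboxypeptidase M, and the 9 myeloid markers rose in mTEChi in both genotypes. Over all genes, 40.2% were called higher in mTEChi in WT and 38.7% in cHyper. The part of myeloid cells in the level of Cpm was not tested.

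Cpd rose by a small amount in mTEChi, at 262 ± 17.1 CPM in cHyper mTEChi and 216 ± 10.8 CPM in cHyper mTEClo, and 251 ± 19.7 CPM in WT mTEChi and 193 ± 25.7 CPM in WT mTEClo. The rises were 1.22-fold in cHyper (edgeR adjusted p = 0.0351) and 1.31-fold in WT (adjusted p = 0.00584). The call in cHyper ended without the filter on low counts (adjusted p = 0.0989) and when any of 9 libraries was left out (0.0588 to 0.149; every library but cHyper mTEChi replicate 3 and WT mTEClo replicates 1 and 3). The call in WT ended without WT mTEChi replicate 2 (0.0570) or WT mTEClo replicate 3 (0.0688).

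The genotype effect of Aebp1 differed between the cell types, the only such difference called among the 6 genes tested, where 2.06% of all genes were called, 1.13% with a positive difference and 0.926% with a negative one (595 genes, or 1186 with the replicate block). Its log2 effect was -1.10 in mTEChi and -2.81 in mTEClo, a difference of 1.71 (SE 0.414, edgeR adjusted p = 0.0493). The adjusted p was 0.0145 with the replicate block. It was 0.0636 with DESeq2 size factors, 0.0763 with library totals, and 0.0530 to 0.177 when any library other than cHyper mTEClo replicate 3 was left out, so the call rests near the threshold. Cpm had effects of -0.50 in mTEChi and 0.58 in mTEClo, a difference of -1.08 that did not pass the test (adjusted p = 0.0688). It passed with the replicate block (0.0183), in DESeq2 (0.0103), without the filter (0.00937), in replicates 1 and 2 only (0.0499) and without cHyper mTEClo replicate 1 or 2 (0.0474 or 0.0434). Cpxm2 had a difference of 0.70 (adjusted p = 0.129), which passed only without the filter (0.0415) and without cHyper mTEChi replicate 1 (0.0472) among the 19 alternatives run for this difference. For Cpz the difference of the effects was -8.36, given without a test.

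TPM, transcript levels that allow for gene length and depth, put the members on a common scale. Their summed level was 120 ± 3.13 TPM in cHyper mTEChi and 114 ± 10.5 TPM in WT mTEChi, and 202 ± 6.35 TPM in cHyper mTEClo and 202 ± 10.5 TPM in WT mTEClo (SD, n = 3 each). The mTEClo sums thus differed by less than their spread, while their make-up differed. Cpz held 19.5% of the sum in cHyper mTEClo and 0.0183% in WT mTEClo. Cpxm2 held 16.5% in cHyper mTEClo and 28.8% in WT mTEClo, and Aebp1 1.19% in cHyper mTEClo and 8.28% in WT mTEClo. Cpxm1 ranked highest by TPM in both mTEClo groups, at 32.5% in cHyper and 36.1% in WT.

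In mTEChi, Cpd held most of the sum, 60.1% in cHyper and 65.1% in WT. Cpz ranked next in cHyper mTEChi, with 17.8%, and held 6.44% in WT mTEChi. On this scale Cpz had 21.1, 20.1 and 23.0 TPM in cHyper mTEChi and 7.48, 7.38 and 7.01 TPM in WT mTEChi. It had 38.1, 39.4 and 40.6 TPM in cHyper mTEClo, against 0, 0.0653 and 0.0435 TPM in WT mTEClo.

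**Figure D3:**
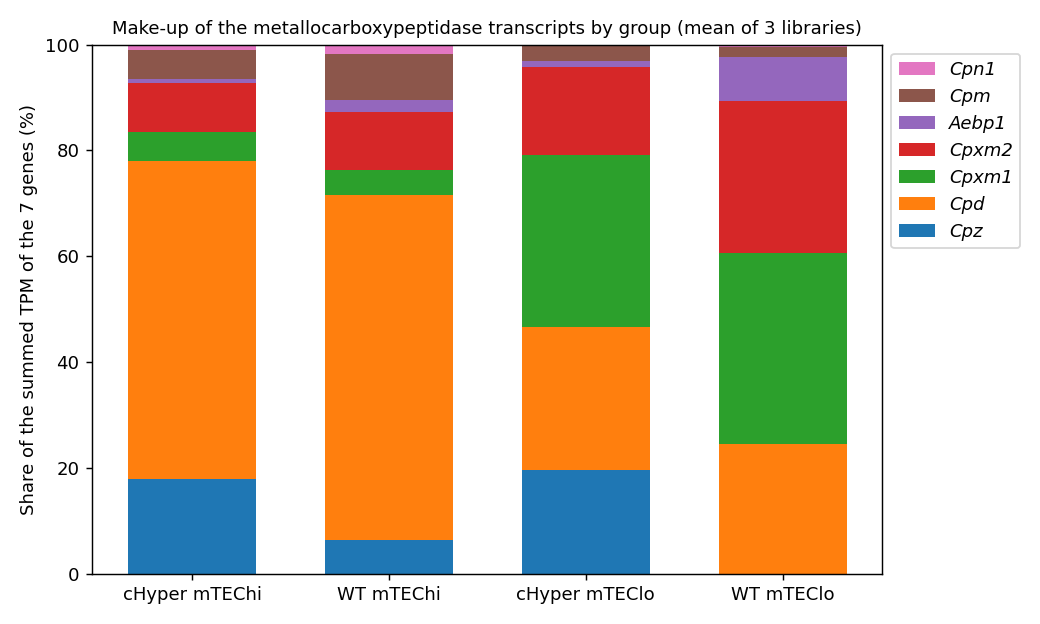
Share of each gene in the summed TPM of the 7 genes (percent, mean of 3 libraries), with cHyper mTEChi, WT mTEChi, cHyper mTEClo and WT mTEClo from left to right. The Cpz part is 17.8%, 6.44%, 19.5% and 0.0183% in that order, too thin to see in WT mTEClo.

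The wider metallocarboxypeptidase family showed smaller genotype effects than Cpz. Cpe, which encodes the prohormone-processing carboxypeptidase E, averaged 3.43 ± 0.959 CPM in cHyper mTEClo and 4.94 ± 0.591 CPM in WT mTEClo, with a log2 fold change of -0.53 (edgeR adjusted p = 0.114; 0.0454 in DESeq2 and 0.0487 without cHyper mTEClo replicate 1). Of 6 cytosolic carboxypeptidases, which trim tubulin tails, 2 rose and 4 did not pass the test, beside 9.16% of all genes called in mTEClo, with a list median log2 of 0.30 against 0.0015 over all genes.

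Agtpbp1, a deglutamylase of tubulin, rose to 37.8 ± 1.44 CPM in cHyper mTEClo, against 26.0 ± 2.02 CPM in WT mTEClo (log2 0.54, edgeR adjusted p = 0.0043). Agbl2 had 8.49 ± 0.696 CPM in cHyper mTEClo and 4.78 ± 1.29 CPM in WT mTEClo (SD, n = 3 each; log2 0.83, adjusted p = 0.0181). The call of Agbl2 ended in replicates 1 and 2 only (0.0887) and without cHyper mTEClo replicate 1 or WT mTEClo replicate 1 or 3 (0.0642 to 0.0754). In mTEChi, edgeR called 0 of 14 tested relatives outside the 7 genes, beside 1.98% of all genes. Of the 14, 3 had an unadjusted p under 0.05, and DESeq2, limma-voom and the replicate block called 1 each. Agtpbp1 was closest, at 22.8 ± 0.669 CPM in cHyper mTEChi and 16.9 ± 1.69 CPM in WT mTEChi (adjusted p = 0.0510, or 0.0239 with the replicate block).

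Genes that act beside these enzymes were read from further lists. The partners and inhibitors Cpn2, Lxn and Rarres1 had no genotype call by edgeR, DESeq2 or limma-voom in either cell type, and 0 had an unadjusted p under 0.05. All 3 rose in mTEChi in both genotypes, beside 40.2% of all genes called higher there in WT and 38.7% in cHyper. Rarres1 averaged 49.6 ± 8.01 CPM in cHyper mTEChi and 0.623 ± 0.485 CPM in cHyper mTEClo, and 53.9 ± 5.27 CPM in WT mTEChi and 0.328 ± 0.130 CPM in WT mTEClo. Cpn2, the regulatory subunit that pairs with the Cpn1 product, averaged 1.17 ± 0.194 CPM in cHyper mTEChi and 0.0543 ± 0.0940 CPM in cHyper mTEClo, and 1.61 ± 0.224 CPM in WT mTEChi and 0.0154 ± 0.0267 CPM in WT mTEClo. The Cpn2 means in mTEClo rest on 4 fragments in cHyper and 2 in WT. None of 3 serine carboxypeptidases was called between the genotypes by edgeR, DESeq2 or limma-voom, with 1 at an unadjusted p under 0.05 in each cell type. Over all genes, edgeR called 1.98% between the genotypes in mTEChi and 9.16% in mTEClo.

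Of 8 proprotein convertase and amidation genes, Pcsk1 fell in cHyper mTEClo and 7 did not pass the test, beside 9.16% of all genes called. Pcsk1, a prohormone convertase, had 0.723 ± 0.220 CPM in cHyper mTEClo and 1.75 ± 0.439 CPM in WT mTEClo (log2 -1.32, edgeR adjusted p = 0.0057). Furin, whose product cuts proteins that carboxypeptidase D then trims, averaged 172 CPM in cHyper mTEClo and 164 CPM in WT mTEClo, with a log2 fold change of 0.07 and a 95% interval of -0.18 to 0.32. In mTEChi none of the 8 was called by edgeR, DESeq2 or limma-voom, and 0 had an unadjusted p under 0.05. Over all genes, edgeR called 1.98% there.

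Among 9 genes for kinins, anaphylatoxins and their receptors, the substrates of carboxypeptidases M and N, 1 rose and 1 fell in cHyper mTEClo, beside 9.16% of all genes called. Bdkrb1, the kinin receptor that binds ligands trimmed by these enzymes, had 6.16 ± 0.164 CPM in cHyper mTEClo and 3.81 ± 0.410 CPM in WT mTEClo (log2 0.69, edgeR adjusted p = 0.0108). C4b, a complement component, had 2.69 ± 0.774 CPM in cHyper mTEClo and 5.77 ± 0.436 CPM in WT mTEClo (SD, n = 3 each; log2 -1.12, adjusted p = 0.0029). In mTEChi edgeR called 0 of the 9, with 2 at an unadjusted p under 0.05, 2 called by DESeq2 and 1 by limma-voom.

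The Cpz product shares its cysteine-rich domain with secreted frizzled-related proteins, and in chick embryos it modulates Wnt signalling. Of 12 other genes with such a domain, 2 rose in cHyper mTEClo, Sfrp1 (log2 0.61, edgeR adjusted p = 0.0311) and Sfrp5 (log2 1.35, adjusted p = 0.0189), beside 9.16% of all genes called. Sfrp1, a Wnt antagonist, averaged 975 ± 152 CPM in cHyper mTEClo and 640 ± 133 CPM in WT mTEClo, and Sfrp5 7.19 ± 3.24 CPM in cHyper mTEClo and 2.85 ± 0.783 CPM in WT mTEClo. The call of Sfrp1 ended when any of 5 libraries was left out (cHyper mTEClo replicate 1 or 2, WT mTEChi replicate 2, WT mTEClo replicate 2 or 3; 0.0506 to 0.133) and in the fit on the compared groups alone (0.0602). That of Sfrp5 ended in limma-voom (0.0543) and without cHyper mTEClo replicate 3 or WT mTEClo replicate 1 or 2 (0.0571 to 0.0792). In mTEChi edgeR called 0 of the 12, with 4 at an unadjusted p under 0.05, 1 called by DESeq2 and 0 by limma-voom.

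Of 19 Wnt ligands, 4 rose and 2 fell in cHyper mTEClo, with a list median log2 of 0.18, and 13 did not pass the test, beside 9.16% of all genes called. Wnt10b had 22.1 ± 4.28 CPM in cHyper mTEClo and 8.87 ± 3.50 CPM in WT mTEClo (log2 1.31, edgeR adjusted p = 0.0017). Wnt7b rose to 30.4 ± 0.377 CPM in cHyper mTEClo, against 21.0 ± 1.46 CPM in WT mTEClo (adjusted p = 0.0049), and Wnt6 fell to 3.10 ± 0.659 CPM in cHyper mTEClo, against 10.3 ± 3.32 CPM in WT mTEClo (adjusted p = 4.7e-04). In mTEChi 1 of 19 was called, beside 1.98% of all genes, and that was Wnt4, at 90.0 ± 11.5 CPM in cHyper and 57.1 ± 2.31 CPM in WT (log2 0.66, adjusted p = 0.0049).

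Genes around Cpz were examined within 250 kb of its start. Of the 13 other tested genes there, edgeR called 0 between the genotypes in mTEChi, with 2 at an unadjusted p under 0.05 and 1 each called by DESeq2, by limma-voom and on the compared groups alone. In mTEClo it also called 0, with 2 at an unadjusted p under 0.05, 2 called by DESeq2, 0 by limma-voom, 1 with the replicate block, 1 without the filter, and 1 without cHyper mTEChi replicate 2, cHyper mTEClo replicate 2 or WT mTEChi replicate 3. In mTEClo, 5 of the 13 had 3 or fewer fragments over a genotype's libraries, and the log2 fold changes of the other 8 lay between -0.58 and 0.38. That range leaves out the 5, so it does not cover genes that go from 0 fragments to a few. Among them, the adrenergic receptor gene Adra2c had 10 fragments in cHyper mTEClo and 0 in WT mTEClo (edgeR adjusted p = 0.0501). In the same order, 4930478P22Rik had 8 and 0 (edgeR adjusted p = 0.0846), Hmx1 had 2 and 0, and E130018O15Rik had 0 and 2. The gene 4930442P19Rik had 0 in both. Acox3, a peroxisomal oxidase gene with its start at -57.3 kb from that of Cpz (negative is upstream), averaged 43.6 ± 5.42 CPM in cHyper mTEClo and 42.1 ± 4.79 CPM in WT mTEClo (SD, n = 3 each).

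**Figure D4:**
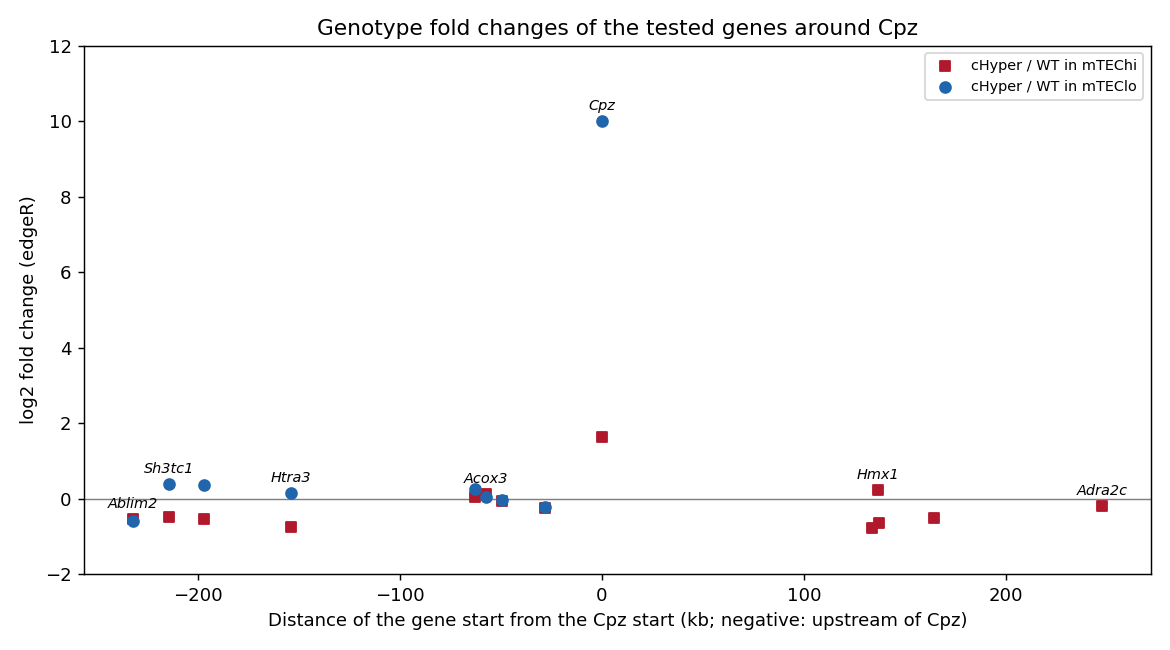
Log2 fold changes between the genotypes (cHyper over WT, edgeR) of Cpz and the tested genes whose start lies within 250 kb, by distance of the start from that of Cpz in kb. Squares are mTEChi and circles are mTEClo, where 5 genes with 3 or fewer fragments in a group are not drawn. Among these is Adra2c, with 10 fragments in cHyper mTEClo and 0 in WT mTEClo. Cpz stands at 10.0 in mTEClo and 1.65 in mTEChi, and the other drawn points lie between -0.78 and 0.38.

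The genes most like Cpz across the 12 libraries were ranked by Pearson correlation of log2 CPM among 15920 named genes whose mean reached 1 CPM. They were Tmem56 (r = 0.986), Zmat3 (0.970), Gpr55 (0.968), Anks1b (0.960), Itm2a (0.957), Samd12 (0.954), Tbc1d30 (0.947) and Gipc2 (0.945). The 12 libraries fall into 4 groups and share their scaling, so these values describe a likeness of group patterns. For scale, the median r over the ranked genes was 0.035 and the 99th percentile 0.816. With Spearman's rho, which reads only the order of libraries, none of the 8 stayed among the top 8, and with a prior count of 0.5 in place of 2, 6 did.

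All 8 had their lowest mean in WT mTEClo, which the ranking favours because Cpz itself is near 0 there, so it is no separate result. Tmem56, the closest, averaged 20.5 CPM in cHyper mTEChi and 16.5 CPM in WT mTEChi, and 22.8 CPM in cHyper mTEClo and 8.18 CPM in WT mTEClo. Zmat3, a known p53 target gene that encodes a zinc-finger RNA-binding protein, averaged 102 CPM in cHyper mTEChi and 79.4 CPM in WT mTEChi, and 94.7 CPM in cHyper mTEClo and 39.7 CPM in WT mTEClo. Gpr55, a receptor for lysophosphatidylinositol, averaged 20.2 CPM in cHyper mTEChi and 11.3 CPM in WT mTEChi, and 16.3 CPM in cHyper mTEClo and 2.65 CPM in WT mTEClo. None of the 8 came as near to 0 in WT mTEClo as Cpz did, their lowest mean there being 1.10 CPM, for Itm2a. The low level of Cpz there had a part in its choice, so this contrast is no separate result either.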

How the data were processed

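The submitters' processing notes list mm10 as the build and name TopHat2 2.1.1, SAMtools 1.9, featureCounts and Subread 2.0.1, with no roles; the annotation release, strand setting and filters are not stated there. The authors deposited fragment counts per gene in 12 columns, with the runs of replicates 1 and 2 combined, and TPM computed by them from counts and gene lengths; TPM recomputed here differed by at most 0.207. The table held 1 further per-sample column, which was not used. 203 genes share a symbol with another gene, none of them a member.

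The main test was edgeR's quasi-likelihood F test (version 4.0.16, R 4.3.3) on the counts, after TMM scaling and filterByExpr, in a fit of all 12 libraries on group means (8 residual degrees of freedom), with Benjamini-Hochberg adjustment over 28932 genes and calls at an adjusted p under 0.05. SE is the log2 fold change over the root of F. The fit was tested on simulated counts for 27757 genes with 200 changed in cHyper mTEClo. For cHyper against WT in mTEClo, 93 of 100 changes of 2-fold and 100 of 100 of 4-fold were called. For the difference of the genotype effects, 58 of 100 of 2-fold and 100 of 100 of 4-fold were called. These shares hold for those counts only, and recovery at the spread of each member was not tested. Among the members, the 2.12-fold fall of Cpn1 in mTEClo was called and the 2.15-fold fall of Aebp1 in mTEChi was not. Alternatives used limma 3.58.1, DESeq2 1.42.0, other scalings, filters and sample choices. Totals of 22.02 to 47.93 M fragments set the precision; intervals on fragments cover counting error only. Ratios given apart for replicates 1 and 2 and for replicate 3 are of mean CPM with 0.1 added, and the labels name no batch.

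Members and lists were chosen with earlier results of these data known. A test of Cpz between the cell types of WT had been planned and is not given, since WT mTEClo had a part in its choice. All members were to be named, list genes only from 0.5 CPM, the 8 genes most like Cpz and its neighbours within 250 kb; which list genes the text names, among them Cpn2, was settled after their values were seen. Deviations from group means correlated at 0.141 to 0.397 in 18 pairs of same-numbered libraries and at -0.297 to 0.0974 in 36 pairs of differently numbered ones, so the numbers pair the libraries by this check; the labels name no shared litter or day. Some results on list genes are not reported here.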

Additional observations from a re-analysis of the deposited data

Results flagged for a closer look

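Aebp1 was singled out because its genotype effect was called different between the cell types. The log2 effect in mTEChi minus that in mTEClo was 1.71 (edgeR adjusted p = 0.0493 for the difference itself). That call ended with DESeq2 size factors (edgeR adjusted p = 0.0636) and with library totals (0.0763). It also ended when any library other than cHyper mTEClo replicate 3 was left out (0.0530 to 0.177). Aebp1 averaged 1.84 ± 0.642 CPM in cHyper mTEChi and 4.04 ± 0.596 CPM in WT mTEChi, and 4.62 ± 2.16 CPM in cHyper mTEClo and 31.8 ± 2.38 CPM in WT mTEClo (SD, n = 3 each). It fell in cHyper mTEClo (adjusted p = 2.37e-05) and did not pass the test in mTEChi (adjusted p = 0.0853). All 3 cHyper libraries lay below all WT libraries in each cell type, and groups did not overlap for 25.7% of all genes in mTEChi and 25.2% in mTEClo.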

How the results depend on the processing

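Each result was recomputed with 2 other scalings, without the filter, with DESeq2, with limma-voom, on the compared groups alone (not for the difference of effects, which takes all groups), with the replicate block, on replicates 1 and 2 only, and without each of the 12 libraries. Members called between the genotypes in mTEChi numbered 1 of 7; they were 2 without the filter, 2 in DESeq2, 3 on the compared groups alone, 2 with the replicate block, and 1 to 2 when a library was left out. Members called for the difference of the genotype effects numbered 1 of 6. They were 0 with DESeq2 size factors, 0 with library totals, 3 without the filter, 2 in DESeq2, 2 with the replicate block, 2 in replicates 1 and 2 only, and 0 to 1 when a library was left out. A single call among the leave-outs was Aebp1 only without cHyper mTEClo replicate 3. It was Cpm without cHyper mTEClo replicate 1 or 2, and Cpxm2 without cHyper mTEChi replicate 1. Counts of members called stayed within 1.5 times of the reported ones in the other comparisons, at 4 with the block and 2 to 3 when a library was left out for the genotypes in mTEClo, and at 5 to 6 for WT and 4 to 5 for cHyper between the cell types when a library was left out. Where the replicate block changed a call its value is given above, and it changed no other call among the members and the list genes recomputed. Values that turned direction had not passed the test, and the cause was not tested. Between genotypes in mTEClo, Cpxm1 had log2 0.040 in replicates 1 and 2 only and -0.31 to 0.11 when a library was left out (positive without WT mTEClo replicate 3). In mTEChi, Cpd had -0.0060 with library totals and -0.013 without cHyper mTEChi replicate 1, Cpxm1 -0.088 in replicates 1 and 2 only and -0.050 to 0.58 when a library was left out (negative without cHyper mTEChi replicate 3), and Cpxm2 -0.17 to 0.029 (positive without cHyper mTEChi replicate 1). Between the cell types of cHyper, Cpm had -0.11 to 0.34, negative without cHyper mTEChi replicate 3 (-0.086) or cHyper mTEClo replicate 1 or 2 (-0.11, -0.10). The difference of effects of Cpd was -0.19 to 0.0099 (positive without WT mTEClo replicate 3), and that of Cpxm1 -0.13 in replicates 1 and 2 only. Over all genes, 572 were called between the genotypes in mTEChi, 1455 by DESeq2, 862 by limma-voom, 1126 on the compared groups alone, 1251 with the block, 312 in replicates 1 and 2 only and as few as 296 when a library was left out. For the difference of effects 595 were called, 1101 without the filter, 1425 by DESeq2, 1186 with the block, 282 in replicates 1 and 2 only and as few as 354 when a library was left out. Low counts limit Cpz in WT mTEClo and Cpn1 throughout.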
